A study of Mus musculus with 7 samples.

Results

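Imprinted genes were followed in the atrioventricular canal of Hand2 null and wild-type mouse embryos. The set was a list of 36 symbols of genes known to be imprinted in the mouse, chosen by name with earlier results of these data known. All of them had a row among the 23284 gene rows of the count files. The list was divided into 17 maternally expressed genes, 18 paternally expressed genes and Gnas, whose active copy depends on the isoform. The division follows the parental copy listed as active in tissues where a gene is imprinted. The canal, the part of the heart tube between atrium and ventricle in which the valves form, was dissected from outbred NMRI embryos of 18 to 23 somites, which the sample titles put at embryonic day 9.5 and the other labels slightly earlier. The null group carried Hand2 d/d, a germline deletion of all coding sequence of this basic helix-loop-helix transcription factor, and comprised 4 libraries (replicates 1 to 4). The wild-type group comprised 3 libraries (replicates 2 to 4). Each library was made from 4 pooled canals, so differences between embryos within a pool were not measured. Sequencing gave 28667561 to 38938029 gene reads per null library, against 27905601 to 44860753 per wild-type library.

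At an imprinted gene the copy from a particular parent is silenced, and the state is set by DNA methylation placed in the germ line. Many of these genes act on fetal and placental growth, the best known being the growth factor Igf2 with its clearance receptor Igf2r, and several are abundant in the embryonic heart. They lie in domains in which a shared control region sets the activity of several neighbours. The counts give the sum of both parental copies, so a change in level says nothing on which copy was read. The terms maternally and paternally expressed follow the copy listed as active in tissues where the gene is imprinted, which need not include the canal. Whether each gene was imprinted in the canal was not measured.

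Hand2 itself was at 0.187, 0.792, 0.349 and 0.360 CPM (reads of a gene per 1000000 reads in genes) in the null libraries, against 47.3, 42.3 and 42.8 CPM in the wild-type libraries, so all 7 libraries matched their labels. Myocardium was present in every library. A list of 7 markers of canal myocardium summed to 12114 to 15124 CPM in null and 12042 to 14042 CPM in wild-type canals. Most of each sum was Actc1, at 8833 to 11846 CPM in null and 8590 to 10647 CPM in wild-type canals. The sum therefore says little on canal identity. Tbx2 was at 3.60 to 9.91 CPM in null and 8.39 to 10.1 CPM in wild-type canals. Tbx3 was at 75.9 to 102 CPM in null and 41.9 to 97.4 CPM in wild-type canals. No gene of this list was called. Of the other cell type markers, 3 of 6 endothelial genes were called higher, against 4.11% of all genes tested. The 6 summed to 355 to 378 CPM in null and 213 to 248.6 CPM in wild-type canals. Of 5 cushion mesenchyme genes 4 were called lower, against 2.13% of all genes tested. The 5 summed to 57.3 to 78.1 CPM in null and 105 to 248 CPM in wild-type canals. With 1 library left out, the endothelial Pecam1 kept its call in 4 of 7 fits and the cushion gene Msx1 in 2. Kdr, Tie1 and Twist1 kept theirs in all 7, and Sox9 and Postn in 6. No gene of the epicardial, foregut, liver bud and yolk sac, neural or neural crest lists was called. The red cell markers, of which Hba-a1 was at 0 throughout, summed to 5605 to 14518 CPM in null and 9337 to 22055 CPM in wild-type canals, and 1 of 6 tested, the erythroid factor gene Klf1, was called lower (log2 fold change -1.16, edgeR adjusted p = 0.0426, kept in 2 of the 7 fits that left out a library). In such bulk tissue, fewer cells of a type and less RNA per cell cannot be told apart. The part of these shifts in the values of the imprinted genes was not tested.

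Imprinted transcripts were abundant. The 36 genes together took 0.947 ± 0.0671% of all gene reads in null canals (SD, n = 4) and 0.932 ± 0.0683% in wild-type canals (SD, n = 3). The 5 most abundant by reads, which were Mest, H19, Grb10, Igf2r and Igf2, held 66.7 ± 3.08% of the reads of the set in null canals and 69.3 ± 2.61% in wild-type canals. Levels between genes were compared per length, as CPM per kilobase of annotated exon. On this scale H19 was first, with 552 in null and 637 in wild-type canals. Mest followed with 378 in null and 458 in wild-type canals, then Cd81 with 214 in null and 177 in wild-type canals. Igf2 had 149.6 in null and 176 in wild-type canals, and Grb10 had 175 in null and 111 in wild-type canals. At the other end stood Rasgrf1, Snrpn, Magel2 and Mirg, each under 0.25 CPM per kilobase in either genotype. Snrpn shares exonic bases with Snurf on the same strand, and whether its reads were set aside in counting as belonging to both was not tested, so its level may be understated.

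A test was possible for 34 of the 36 genes, all but Snrpn and Rasgrf1 passing the filter on low counts. In Hand2 null canals Ascl2, Peg3 and Peg10 rose and Phlda2 and Ndn fell, at an adjusted p under 0.05 in edgeR's quasi-likelihood test over 14290 genes. This was 5 of 34, or 14.7%, while 6.24% of all genes tested were called. Since the members were chosen with earlier results known, the 2 shares are not an unbiased comparison. By parental copy, 1 of 17 maternally expressed genes rose (Ascl2) and 1 fell (Phlda2), and of 16 tested paternally expressed genes 2 rose (Peg3 and Peg10) and 1 fell (Ndn). Over all genes 4.11% were called higher and 2.13% lower. The median log2 fold change was 0.10 over the 34 genes, 0.17 over the maternally and 0.08 over the paternally expressed ones, against 0.02 over all genes tested. The values of the null libraries lay wholly above those of the wild-type libraries for 7 of the 34 genes and wholly below for 3. Over all genes tested, 11.6% were wholly above, 10.3% wholly below and 21.8% in either position. DESeq2, run as an alternative, called 5 of the 34 genes higher and 3 lower, against 7.1% higher, 5.68% lower and 12.8% in either direction over all genes. At an unadjusted p under 0.05 there were 12 of the 34 genes, against 24.4% of all genes tested.

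**Figure D1:**
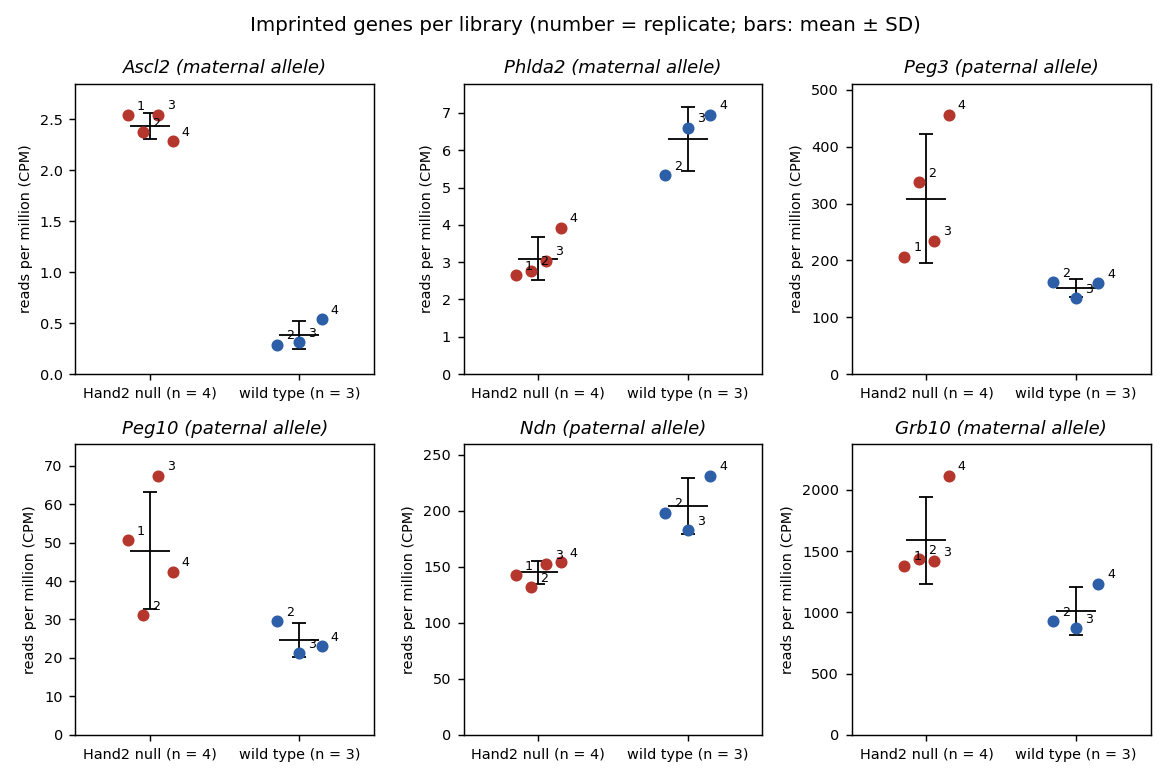
Level in CPM (vertical axis, from 0) of 6 imprinted genes in each Hand2 null (left, n = 4) and wild-type library (right, n = 3); points are libraries numbered by replicate and bars are the mean ± SD. The groups do not overlap for any of the 6 genes; Ascl2 lies between 2.29 and 2.55 CPM in null and between 0.290 and 0.538 CPM in wild-type canals, while Grb10, shown beside the called genes, has its highest value of 2117 CPM in null replicate 4.

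The largest change among the 34 genes was that of Ascl2, a basic helix-loop-helix factor listed as maternally expressed. It is known for its part in placental trophoblast and in intestinal stem cells. Its reads numbered 95, 78, 73 and 89 in null replicates 1 to 4, against 13, 9 and 15 in wild-type replicates 2 to 4. That is 2.54, 2.37, 2.55 and 2.29 CPM in null canals, against 0.290, 0.311 and 0.538 CPM in wild-type canals, with the null libraries close together and far above each wild-type library. The log2 fold change was 2.68 (SE 0.374, edgeR adjusted p = 0.0016). With any 1 library left out the value stayed between 2.49 and 2.98 and the adjusted p between 0.00262 and 0.0175.

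Because Ascl2 also marks trophoblast, other markers of that tissue were read beside it. The giant cell hormone gene Prl3d1 was at 0.0268, 7.31, 0.105 and 0.205 CPM in null replicates 1 to 4, against 0.156, 0.969 and 0.0358 CPM in wild-type replicates 2 to 4. Cdx2 had no read in any library. Of the 9 genes of that marker list 3 passed the filter on low counts, and Ascl2 alone was called. The sum of the list, most of it the cardiac factor Hand1, was 73.9 to 129 CPM in null and 73.1 to 135 CPM in wild-type canals. Prl3d1 was highest in null replicate 2. The part of trophoblast RNA in the Ascl2 values was not tested.

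Ascl2 lies in the imprinted domain of distal chromosome 7 that the noncoding RNA Kcnq1ot1 silences on the paternal copy. Phlda2, in the same domain and also maternally expressed, encodes a small lipid-binding protein known to restrain placental growth. It was at 2.65, 2.77, 3.03 and 3.93 CPM in null canals, against 5.33, 6.61 and 6.95 CPM in wild-type canals, so every null library lay below every wild-type library. The log2 fold change was -1.04 (SE 0.232, edgeR adjusted p = 0.0226). Leaving out 1 library ended the call for null replicate 1 (adjusted p = 0.0712), null replicate 2 (0.059) and wild-type replicates 2 (0.0613), 3 (0.103) and 4 (0.0599), while the log2 fold change stayed between -1.18 and -0.97.

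The start regions of these neighbours that moved in opposite directions are shown with that of Peg3, the paternally expressed gene with the strongest rise. Each runs from 250 bases before to 50 after the annotated start, in RefSeq on build GRCm38.p6 and minus strand, and capitals mark the E-box CANNTG, the motif class that basic helix-loop-helix factors such as HAND2 and ASCL2 bind. The intervals are chr7:142969215-142969514 for Ascl2, chr7:143502475-143502774 for Phlda2 and chr7:6730370-6730669 for Peg3.
Ascl2: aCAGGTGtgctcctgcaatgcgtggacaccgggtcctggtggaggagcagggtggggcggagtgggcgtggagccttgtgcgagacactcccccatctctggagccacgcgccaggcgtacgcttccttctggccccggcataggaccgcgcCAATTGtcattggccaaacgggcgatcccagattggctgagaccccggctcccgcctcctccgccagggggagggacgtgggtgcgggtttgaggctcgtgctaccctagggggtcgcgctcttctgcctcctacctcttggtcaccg
Phlda2: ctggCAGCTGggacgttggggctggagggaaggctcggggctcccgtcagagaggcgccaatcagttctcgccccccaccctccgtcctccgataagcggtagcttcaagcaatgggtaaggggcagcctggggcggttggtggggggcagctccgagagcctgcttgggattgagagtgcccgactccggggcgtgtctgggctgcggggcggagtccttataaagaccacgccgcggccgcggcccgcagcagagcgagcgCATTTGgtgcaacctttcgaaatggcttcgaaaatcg
Peg3: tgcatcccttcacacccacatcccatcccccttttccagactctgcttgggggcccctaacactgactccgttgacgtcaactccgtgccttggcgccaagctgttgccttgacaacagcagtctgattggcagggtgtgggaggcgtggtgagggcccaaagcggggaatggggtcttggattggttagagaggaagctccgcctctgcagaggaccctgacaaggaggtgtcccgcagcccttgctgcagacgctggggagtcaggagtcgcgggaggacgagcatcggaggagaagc
The Ascl2 and Phlda2 windows each held 2 E-boxes and the Peg3 window none, and 72.3% of the 32851 promoter windows in the table hold at least 1. CANNTG reads the same on either strand. CATCTG, searched on either strand, which CANNTG includes, was in none of the 3 windows and in 17.2% of all windows. CpG dinucleotides numbered 23, 26 and 13 in the Ascl2, Phlda2 and Peg3 windows, against a median of 7 over all windows. The windows of Peg3 and of Usp29, which is read in the opposite direction, shared 263 bases. A motif match is a description of the sequence and not a measured binding site.

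The other 6 genes of the Kcnq1ot1 domain on the list were not called. Kcnq1ot1 itself was at 78.5, 284, 128 and 93.6 CPM in null canals, against 117, 168 and 117 CPM in wild-type canals, and the groups overlapped (log2 fold change 0.08, SE 0.347, adjusted p = 0.917). Its highest value came from null replicate 2, the library with the largest share of reads outside genes (14.2%, against 7.31 to 9.51% in the other null and 8.79 to 9.998% in the wild-type libraries). Kcnq1ot1 shares 121 exonic bases, 0.13% of its own, with Kcnq1 on the opposite strand in GRCm38, which unstranded reads cannot separate. Whether reads of unspliced Kcnq1 RNA entered the Kcnq1ot1 counts was not tested. Without null replicate 2 the log2 fold change of Kcnq1ot1 was -0.42. The transporter gene Slc22a18, counted only 3 to 18 times per null library and 20 to 30 times per wild-type library, had -1.29 (SE 0.554, adjusted p = 0.177). Cd81, which encodes a tetraspanin of the cell surface, was at 622, 688, 579.7 and 579 CPM in null canals, against 538, 459.8 and 533 CPM in wild-type canals (0.26, SE 0.125, adjusted p = 0.232). Its null libraries all lay above its wild-type libraries, by a small margin. Nap1l4, a histone chaperone gene, was at 272, 424, 218 and 427 CPM in null canals, against 230.1, 192 and 302 CPM in wild-type canals, with overlap (0.45, SE 0.224, adjusted p = 0.242). Tssc4 had a log2 fold change of -0.28 (SE 0.161) and Osbpl5, a gene of the oxysterol-binding protein family, 0.02 (SE 0.192). Cdkn1c, the maternally expressed cell cycle inhibitor of this domain, was not among the 36 and belonged to a second list of imprinted genes. It was at 500.4, 561, 499 and 452 CPM in null canals, against 998, 1296 and 976 CPM in wild-type canals. Its log2 fold change was -1.14 (SE 0.146, edgeR adjusted p = 0.000932), and the call held with any 1 library left out. In this domain Phlda2 and Cdkn1c thus fell while Ascl2 rose.

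**Figure D2:**
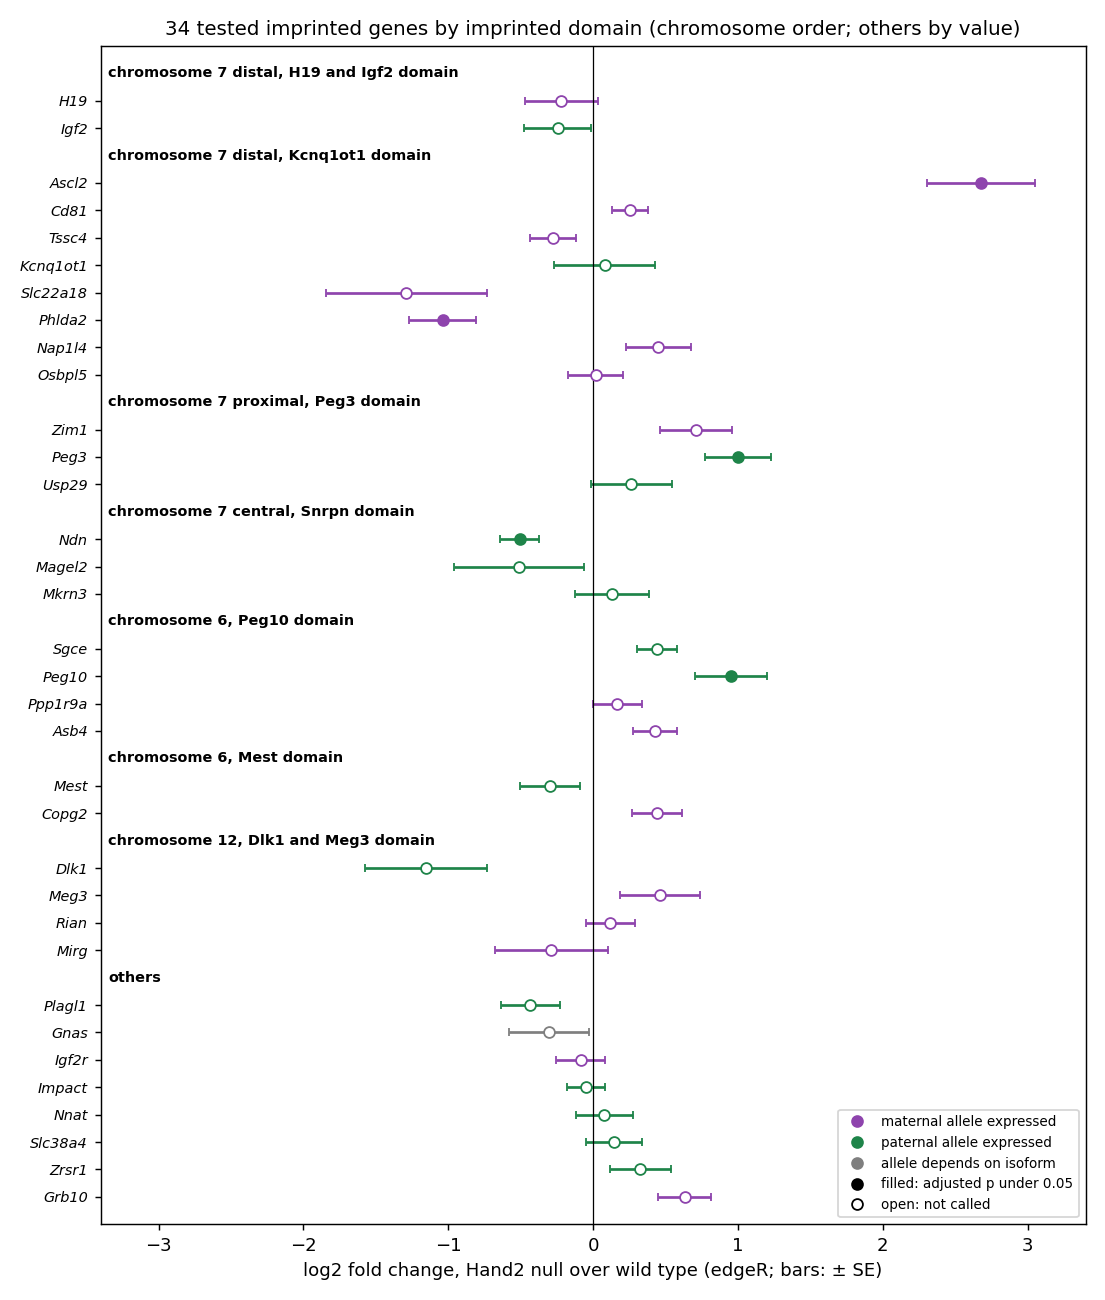
Log2 fold change of Hand2 null over wild-type canals (horizontal axis, edgeR, bars ± SE) of the 34 tested imprinted genes, grouped by domain. Colour gives the parental copy listed as active, and filled points an adjusted p under 0.05. Within the Kcnq1ot1 domain Ascl2 stands at 2.68 and Phlda2 at -1.04, while H19 and Igf2 stand side by side at -0.22 and -0.24.

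In the neighbouring domain, Igf2 and H19 did not pass the test. Igf2, the paternally expressed fetal growth factor, was at 803, 762, 1213 and 647 CPM in null canals, against 1069, 1199.8 and 746 CPM in wild-type canals (log2 fold change -0.24, SE 0.231, adjusted p = 0.558). H19, a maternally expressed noncoding RNA that shares enhancers with Igf2, was at 1291, 1304, 2023 and 813 CPM in null canals, against 1515, 1793 and 1396 CPM in wild-type canals (-0.22, SE 0.252, adjusted p = 0.637). Both ranges in null canals enclosed those in wild-type canals, and both genes were highest in null replicate 3 and lowest in null replicate 4. Igf2 reads per H19 read were 0.650 ± 0.0978 in null canals (SD, n = 4) and 0.636 ± 0.0900 in wild-type canals (SD, n = 3).

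Peg3, a paternally expressed zinc finger gene of proximal chromosome 7, was at 206, 338, 235 and 456 CPM in null canals, against 162, 133 and 160.4 CPM in wild-type canals. All null libraries were above all wild-type libraries, with null replicates 2 and 4 the highest. The log2 fold change was 1.00 (SE 0.228, edgeR adjusted p = 0.025). The call was lost without null replicate 2 (adjusted p = 0.0606) or wild-type replicate 2 (0.0994), 3 (0.117) or 4 (0.0543), with values of 0.92 to 1.04 in those fits. Zim1, the maternally expressed zinc finger gene beside it, was at 4.79, 8.65, 8.48 and 6.24 CPM in null canals, against 4.21, 4.81 and 3.66 CPM in wild-type canals. The ranges overlapped slightly, since null replicate 1 lay below wild-type replicate 3, and the log2 fold change of 0.71 (SE 0.247, adjusted p = 0.106) did not pass. Usp29, a deubiquitinase gene that shares the Peg3 start region shown above, had 5.87 ± 1.44 CPM in null canals (SD, n = 4) and 4.80 ± 1.497 CPM in wild-type canals (SD, n = 3), with 0.26 (SE 0.279, adjusted p = 0.61).

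Peg10, a paternally expressed gene derived from a retrotransposon and required for the placenta, was at 50.6, 31.1, 67.4 and 42.4 CPM in null canals, against 29.5, 21.3 and 23.1 CPM in wild-type canals. The groups came close, at null replicate 2 and wild-type replicate 2, but did not overlap. The log2 fold change was 0.95 (SE 0.25, edgeR adjusted p = 0.0447), and the call was lost without null replicate 1 (adjusted p = 0.111) or wild-type replicate 2 (0.103), 3 (0.185) or 4 (0.103). Sgce, the sarcoglycan gene that lies next to Peg10 on chromosome 6 and is read in the opposite direction, was at 92.2, 97.8, 85.2 and 82.9 CPM in null canals, against 66.4, 55.2 and 73.9 CPM in wild-type canals. Here too the groups did not overlap, but the log2 fold change of 0.44 (SE 0.138, adjusted p = 0.0772) did not pass. The maternally expressed genes of that domain were Asb4, which encodes an ankyrin repeat protein, at 134 ± 16.3 CPM in null (SD, n = 4) and 98.3 ± 20.5 CPM in wild-type canals (SD, n = 3), and Ppp1r9a, which encodes the actin-binding neurabin. Their log2 fold changes were 0.43 (SE 0.154, adjusted p = 0.115) and 0.17 (SE 0.169, adjusted p = 0.586).

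Ndn encodes necdin, a growth-restraining member of the MAGE family, in the central chromosome 7 domain. It was at 142, 132, 152 and 154 CPM in null canals, against 198, 183 and 231 CPM in wild-type canals, without overlap. The difference of -0.51 on the log2 scale (SE 0.135, edgeR adjusted p = 0.0474) was the smallest in size of the 5 called. It passed in only 1 of the 7 fits that left out a library, the one without null replicate 3 (adjusted p = 0.0319). Leaving out null replicates 1, 2 and 4 gave adjusted p of 0.105, 0.102 and 0.0561, and leaving out wild-type replicates 2, 3 and 4 gave 0.169, 0.113 and 0.137. The neighbours Magel2 (another MAGE gene, -0.51, SE 0.448) and Mkrn3 (a ubiquitin ligase gene, 0.13, SE 0.258) were under 4 CPM in every library and were not called. Snrpn, the splicing protein gene of this domain, had 6 to 18 reads per null and 4 to 9 per wild-type library. Snurf, whose 216 exonic bases in GRCm38 are all shared with Snrpn on the same strand, had no read in any library. Whether its reads were set aside in counting was not tested, so the count of 0 does not show that Snurf was silent.

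**Figure D3:**
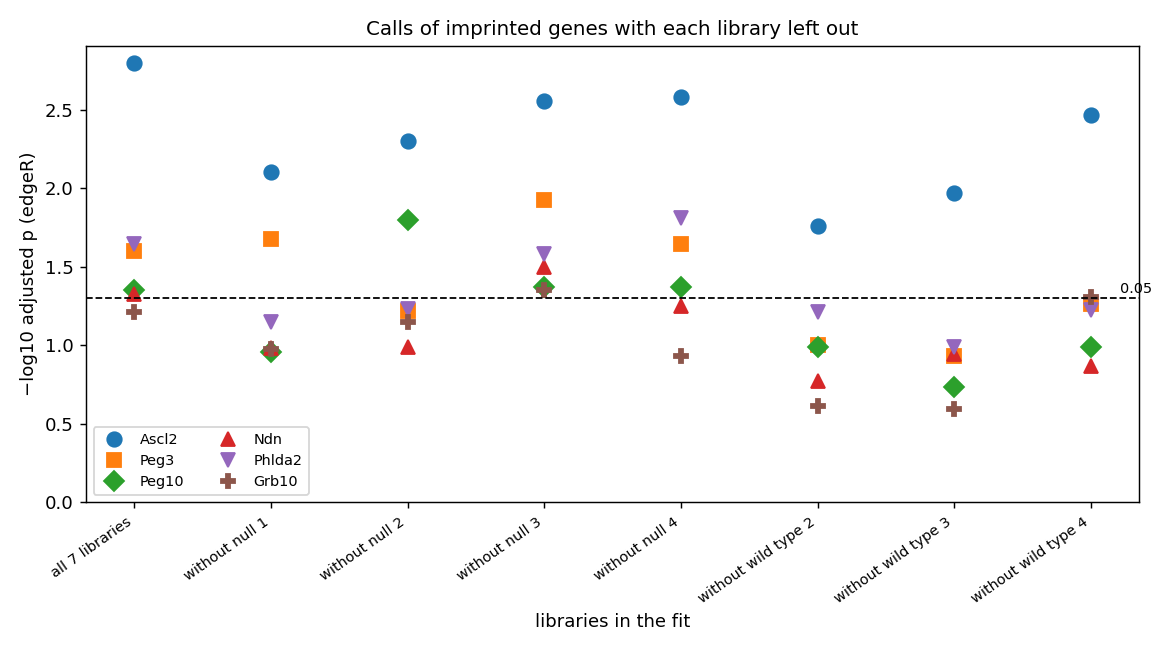
Adjusted p on a −log10 scale (vertical axis, edgeR) of 6 imprinted genes in the fit of all 7 libraries and with each library left out (horizontal axis); the dashed line is 0.05. Only Ascl2 stays above the line in all 8 fits, with its weakest adjusted p of 0.0175 without wild-type replicate 2.

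Of the members not called, Grb10 came nearest to the threshold. Grb10, an adaptor that dampens insulin and IGF receptors and is maternally expressed outside neurons, was at 1381, 1433, 1417 and 2117 CPM in null canals, against 928, 872 and 1234 CPM in wild-type canals. The groups did not overlap, and null replicate 4 was far above the other null libraries. Its log2 fold change was 0.63 (SE 0.183, edgeR adjusted p = 0.0618). It was called without null replicate 3 (0.67, adjusted p = 0.0444) and without wild-type replicate 4 (0.78, adjusted p = 0.0491), and the value was 0.46 without null replicate 4. Igf2r, which carries IGF2 to the lysosome, was at 933, 1098, 1300.2 and 793 CPM in null canals, against 1187, 1011 and 1051 CPM in wild-type canals (-0.09, SE 0.172, adjusted p = 0.801).

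A list of 29 insulin-like growth factor pathway genes held none of the 36 members. Of the 29, 24 were tested, 5 rose and 1 fell, which is 25.0% against the 6.24% of all genes. This list too was chosen with earlier results of these data known, so its share is not an unbiased measure. The binding protein gene Igfbp3 was at 41.7, 33.0, 62.9 and 26.1 CPM in null canals, against 8.83, 6.95 and 6.27 CPM in wild-type canals (log2 fold change 2.46, SE 0.299, edgeR adjusted p = 0.000684). Stc2 and Stc1, stanniocalcins that inhibit the protease which frees IGF from its binding proteins, had 3.14 (SE 0.25) and 2.18 (SE 0.236). These 3 calls held with any library left out. Igf1r, the receptor that signals for IGF2, was at 157, 183, 221 and 149 CPM in null canals, against 112, 116 and 107 CPM in wild-type canals (0.65, SE 0.16, adjusted p = 0.0357). Leaving out 1 library ended its call for null replicates 1 (adjusted p = 0.0723) and 2 (0.0685) and each of wild-type replicates 2 (0.162), 3 (0.114) and 4 (0.0935). The substrate gene Irs1 had 0.64 (SE 0.168, adjusted p = 0.0448) and lost its call without the same libraries (adjusted p of 0.0854, 0.11, 0.186, 0.178 and 0.0754 in that order). Igfbpl1, an IGF-binding protein-like gene, had -1.85 (SE 0.338, adjusted p = 0.0081), but -1.41 without wild-type replicate 3 (adjusted p = 0.0541).

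Mest, Copg2, Plagl1, Gnas, Slc38a4, Nnat, Impact and Zrsr1 were not called in the fit of all libraries. Mest, which encodes a hydrolase-like protein, was at 1559, 1246, 1273 and 1880.0 CPM in null canals, against 2042, 2117 and 1256 CPM in wild-type canals (-0.30, SE 0.208, adjusted p = 0.41). Copg2, the coatomer gene beside it, shares 912 exonic bases with Mest on the opposite strand in GRCm38, and reads of that stretch cannot be told apart without strand. Copg2 was at 53.3, 52.3, 39.5 and 65.9 CPM in null canals, against 43.6, 33.8 and 37.6 CPM in wild-type canals (0.44, SE 0.173, adjusted p = 0.142). It was called without null replicate 3 (0.55, adjusted p = 0.0414). Plagl1, a zinc finger factor that regulates other imprinted genes, was at 159, 167, 222 and 131 CPM in null canals, against 251, 260.4 and 169 CPM in wild-type canals, with overlap at null replicate 3. Its log2 fold change was -0.43 (SE 0.205, adjusted p = 0.219), and -0.61 without null replicate 3 (adjusted p = 0.0484). Gnas, the Gs alpha gene, was at 374, 417, 689.6 and 253 CPM in null canals, against 529, 614 and 451 CPM in wild-type canals (-0.31, SE 0.275, adjusted p = 0.534), and had -0.64 without null replicate 3 (adjusted p = 0.0493). The amino acid transporter Slc38a4, Nnat, a membrane protein gene, Impact, a regulator of translation, and the splicing factor gene Zrsr1 had log2 fold changes of 0.14, 0.08, -0.05 and 0.33, with SE of 0.192, 0.196, 0.129 and 0.21.

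In the chromosome 12 domain the paternally expressed Dlk1, a membrane protein related to Notch ligands, was at 2.87, 1.80, 5.30 and 2.70 CPM in null canals, against 11.9, 3.98 and 5.02 CPM in wild-type canals. Wild-type replicate 2 stood well above the rest, and null replicate 3 lay among the wild-type values. The log2 fold change was -1.15 (SE 0.419, edgeR adjusted p = 0.118). It was -0.52 without wild-type replicate 2 (adjusted p = 0.569) and -1.53 without null replicate 3 (adjusted p = 0.0307). Meg3, the noncoding RNA read from the maternal copy, was at 43.3, 136, 75.8 and 79.9 CPM in null canals, against 71.5, 49.5 and 57.2 CPM in wild-type canals (0.46, SE 0.277, adjusted p = 0.331). Like Kcnq1ot1 it was highest in null replicate 2, and without that library the value was 0.16. Rian and Mirg, the noncoding hosts of small RNAs downstream, had 0.12 (SE 0.169) and -0.29 (SE 0.391).

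For several of these genes the null libraries differed among themselves by more than the genotype means did. Of the 34 tested genes, 12 were highest among null libraries in replicate 3 and 12 in replicate 4, while 13 were lowest in replicate 1. H19, Igf2, Gnas, Igf2r and Plagl1 were highest in null replicate 3 and lowest in null replicate 4. Grb10, Peg3, Mest, Slc38a4 and Nap1l4 were highest in null replicate 4. H19 was at 2023 CPM in null replicate 3 and 813 CPM in null replicate 4, while Nap1l4 was at 218 CPM in null replicate 3 and 427 CPM in null replicate 4. Markers of endoderm also differed between these pools. The liver bud and yolk sac list summed to 3.56, 9.56, 31.99 and 2.34 CPM in null replicates 1 to 4. Its sums in wild-type canals were 2.32 to 13.6 CPM. The foregut list summed to 1.69, 5.602, 3.35 and 9.12 CPM in null replicates 1 to 4. Its sums in wild-type canals were 2.56 to 4.09 CPM. The part of such tissue in the values of the imprinted genes was not tested. What else sets these pools apart was not tested either.

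**Figure D4:**
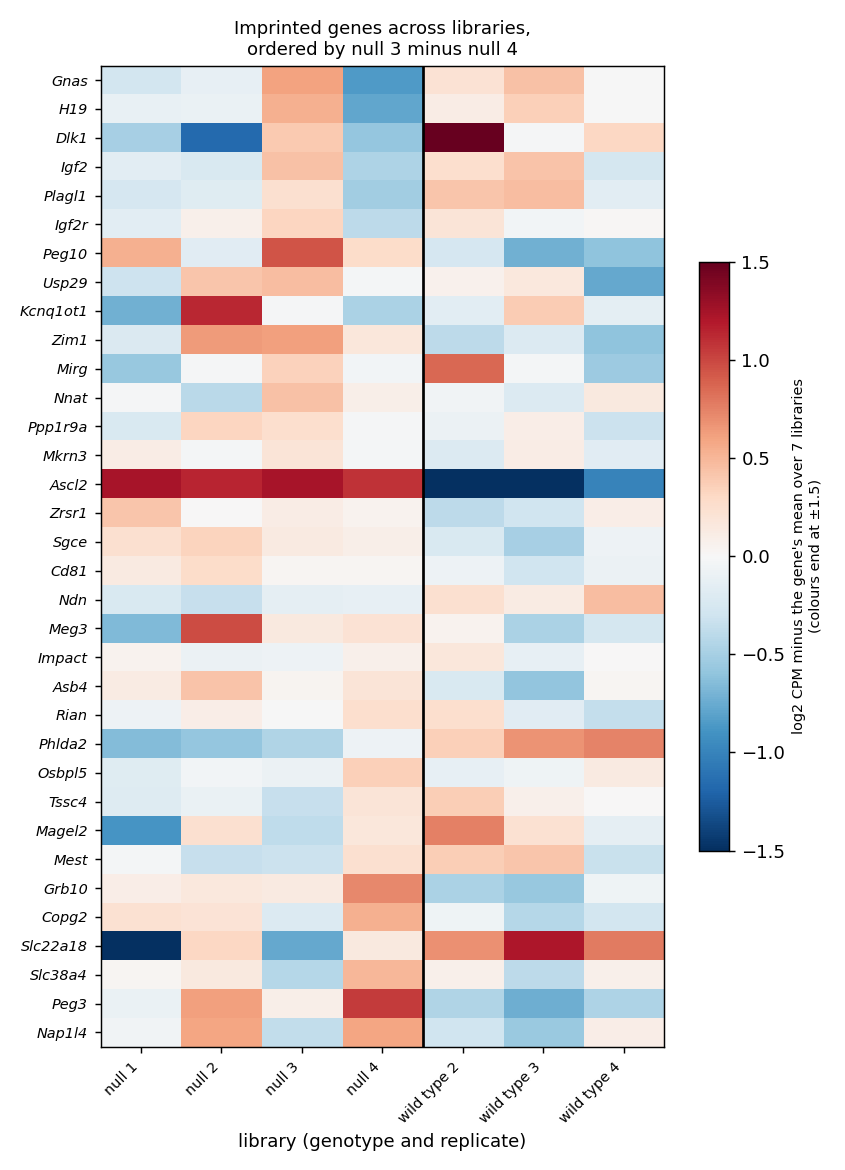
Log2 CPM of 34 imprinted genes minus each gene's mean over all 7 libraries (colour, ending at ±1.5), with null libraries left of the line and wild-type libraries right of it, and genes ordered by the difference of null replicate 3 and null replicate 4. Gnas and H19 at the top are high in null replicate 3 and low in null replicate 4, Peg3 and Nap1l4 at the bottom are higher in null replicate 4 than in null replicate 3, and Ascl2 is high in all 4 null and low in all 3 wild-type libraries.

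Rasgrf1, a Ras exchange factor gene, was near the limit of detection, with 7, 13, 10 and 7 reads in null libraries, against 2, 0 and 0 reads in wild-type libraries. A count of 3 reads, the limit that a count of 0 allows, corresponds to 0.104 and 0.108 CPM in wild-type replicates 3 and 4, so no fold was computed.

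Other lists, also chosen with earlier results known, put the set in context. Of 43 other imprinted genes, 41 had a row and 34 were tested, of which 1 rose and 1 fell (5.88%). Besides Cdkn1c this was Trappc9, a trafficking complex gene, at 30.1, 46.9, 21.2 and 38.4 CPM in null canals, against 18.0, 17.5 and 21.2 CPM in wild-type canals. Its log2 fold change was 0.83 (SE 0.219, edgeR adjusted p = 0.0462). It passed without null replicate 3 but in none of the other 6 fits that left out a library (adjusted p = 0.0895, 0.115 and 0.0682 without null replicates 1, 2 and 4, and 0.186, 0.172 and 0.0635 without wild-type replicates 2, 3 and 4). Of 34 genes that set, protect or read imprints, 30 were tested, 3 rose and none fell, against 6.24% called over all genes. By edgeR 7 of the 30 had an unadjusted p under 0.05, against 24.4% of all genes, a like share. By DESeq2 4 rose and 1 fell, which is 16.7% against 12.8% of all genes. Tet1, a methylcytosine dioxygenase, was at 77.7, 90.9, 79.6 and 70.9 CPM in null canals, against 43.0, 45.8 and 40.0 CPM in wild-type canals (0.87, SE 0.137, edgeR adjusted p = 0.0033), and its call held with any library left out. Tet2 had 0.93 (SE 0.197, adjusted p = 0.0175), and lost its call without null replicate 1 (adjusted p = 0.0621), wild-type replicate 2 (0.111) or wild-type replicate 3 (0.0819). The cohesin subunit gene Stag2 had 0.49 (SE 0.121, adjusted p = 0.0342), and its call ended on leaving out null replicates 1 (0.0942) and 2 (0.0538) and each of wild-type replicates 2 (0.197), 3 (0.122) and 4 (0.0869). The maintenance methyltransferase Dnmt1 was at 107 ± 34.1 CPM in null canals (SD, n = 4) and 104 ± 4.75 CPM in wild-type canals (SD, n = 3), with 0.01 (SE 0.197). Trim28 had -0.72 (SE 0.213, edgeR adjusted p = 0.0676) and Zfp57 had 0.76 (SE 0.252, edgeR adjusted p = 0.0912). DESeq2 called Trim28 lower and Zfp57 higher.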

How the data were processed

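RNA from pooled atrioventricular canals of 4 Hand2 null and 3 wild-type libraries was depleted of ribosomal RNA and sequenced as unstranded single reads of 50 nt after 8 cycles of PCR, per the labels' protocols. The labels planned 4 pools per genotype, and 1 wild-type pool was left out for its RNA quality. The deposited files hold whole-number read counts per gene symbol. According to the submitters' processing notes, the tools were TopHat2 2.0.13 with HTSeq and SAMtools, on build mm9. The annotation and the options of the counting were not given in the sources used here. The 5 summary lines in every file entered neither library sizes nor tests. They put 7.31% to 14.2% of reads in no gene and 9.08% to 13.8% at several places. The floor of 3 reads (0.0669 to 0.108 CPM) covers counting error only, since PCR copies were not told apart by molecular identifiers.

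From these counts, CPM were taken over gene rows, and genotypes were compared with edgeR 4.0.16 (R 4.3.3; TMM; filterByExpr with minimum count 10; genotype as the only term; 14290 genes). Standard errors are the log2 fold change over the square root of F, and Benjamini-Hochberg adjustment ran over all genes tested, with 0.05 as threshold. Exon lengths and overlaps came from GENCODE M21 and promoters from RefSeq, both GRCm38, matched by symbol (20882 of 23284 directly, 1909 by older names; all 36 imprinted genes had a length and 31 a promoter); since counts were made on mm9, these lengths are approximate. On simulated counts, known changes were given only to genes above a minimum mean count. Of these, the edgeR fit called 11.9% of genes changed 1.5-fold, 64.2% at 2-fold and 97.0% at 4-fold. The shares do not cover genes with fewer reads. A gene that was not called is therefore not shown to be unchanged. The labels do not say whether pools share litters, so p-values measure the spread between these pools. The members and lists were chosen with earlier results of these data known. Values per library were given for called members, the 8 most abundant and members called by an alternative. Of other lists up to 4 called genes in each direction are named. Irs1, Dnmt1, Trim28 and Zfp57 were named outside that rule. Irs1, Trim28 and Zfp57 were added after their values were seen. Alternatives were RLE and upper-quartile scaling, no or a stricter filter, DESeq2 1.42.0, a replicate block and libraries left out.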

Additional observations from a re-analysis of the deposited data

Results flagged for a closer look

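In 47 genes checked for a library far from the other 3 of the null group, 3 were found, where chance alone flags about 1 group in 20. Grb10 had 2117 CPM in null replicate 4, against 1433 CPM in the next highest null library. Snrpn had 0.482 CPM in null replicate 1, against 0.209 CPM in the next highest null library, both resting on fewer than 20 reads. Tet2 had 61.1 CPM in null replicate 4, against 100.4 CPM in the next lowest null library. The wild-type group, with 3 libraries, was too small for this check.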

How the results depend on the processing

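Of the log2 fold changes of members under an alternative, 422 kept direction and side of the threshold, 25 lost a call, 13 gained one and 14 changed sign. Ascl2 was called under all 14 alternatives. DESeq2 called 1015 genes higher and 811 lower (12.8% of genes), against 587 and 305 by edgeR. Among the imprinted members it called 5 higher (2 maternally and 3 paternally expressed) and 3 lower (2 of them paternally expressed), adding Grb10 (adjusted p = 0.0182), Sgce (0.036) and Dlk1 (0.0447). It called 2 other imprinted genes higher and 3 lower, and 1 gene of the imprinting machinery lower. With no filter on low counts, Ndn lost its call (adjusted p = 0.0571), leaving 1 member lower and 0 paternally expressed members lower. Over all genes 1.55% were lower in that setting. Of the other imprinted genes, 2 were lower with RLE, upper-quartile scaling or the stricter filter. The shares lower over all genes were 2.44%, 2.62% and 2.67% in that order. With upper-quartile scaling 0 other imprinted genes were higher, against 3.79% of all genes.

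With both null replicate 2 and wild-type replicate 4 left out, 298 genes were higher and 123 lower; 2 maternally expressed members were higher and 0 lower, 0 paternally expressed members were called in either direction, and 0 members were lower, 0 other imprinted genes higher, 3 IGF genes higher and 1 machinery gene higher. With 1 library left out, calls higher and lower ranged from 210 to 946 and 46 to 652 for all genes, 1 to 5 and 0 to 5 for the members, 1 to 3 and 0 to 1 for the maternally expressed, 0 to 2 and 0 to 3 for the paternally expressed, 0 to 1 and 1 to 1 for other imprinted genes, 3 to 6 and 0 to 2 for the IGF list, and 1 to 4 and 0 to 1 for the machinery. The lowest counts over all genes came without wild-type replicate 2 (1.77% of genes called) and the highest without null replicate 3 (11.2%). With null replicate 2 and wild-type replicate 4 left out together, 2.9% of all genes were called. All these fits hold fewer samples than the fit of all libraries.

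Same-numbered null and wild-type libraries correlated in their deviations by -0.073, 0.257 and 0.166 for replicates 2, 3 and 4. Libraries of different number correlated by -0.234 to 0.137. These values do not settle whether the numbers pair the samples, and the main fit did not pair them. The replicate block used replicates 2 to 4 of both groups, so null replicate 1 was left out. It called 761 genes higher and 578 lower, which is 9.53% of 14053. The unpaired fit of the same libraries called 284 higher and 90 lower, or 2.66%. Under the block 5 members were higher and 2 lower, with 4 maternally and 1 paternally expressed member higher. The block also had 2 other imprinted genes lower and 1 machinery gene, Trim28, lower. Grb10, Meg3 and Zim1 were then called (adjusted p = 0.019, 0.0231 and 0.041) and Peg10 was not (0.0687).

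Changes of sign concerned members with small values. They were Kcnq1ot1 (-0.42 without null replicate 2, -0.022 and -0.031 without wild-type replicates 2 and 4, and -0.51 with both null replicate 2 and wild-type replicate 4 left out), Usp29 (-0.04 without those libraries together), Igf2r (0.016), Osbpl5 (-0.12) and Slc38a4 (-0.025) without null replicate 4, Nnat (-0.091) without null replicate 3, Mirg (0.19), Osbpl5 (-0.044) and Impact (0.021) without wild-type replicate 2, Rian (-0.021) without wild-type replicate 4, and Osbpl5 (-0.0029) with upper-quartile scaling. With 1 library left out, the log2 fold changes ranged from -0.42 to 0.29 for Kcnq1ot1, -0.24 to 0.016 for Igf2r, -0.12 to 0.081 for Osbpl5, -0.025 to 0.27 for Slc38a4, -0.091 to 0.22 for Nnat, -0.56 to 0.19 for Mirg, -0.11 to 0.021 for Impact and -0.021 to 0.31 for Rian. The cause was not tested. Depth limits Ascl2, Slc22a18 and Rasgrf1, which rest on few reads per library. Snrpn also had few, and whether reads shared with Snurf were lost in counting was not tested.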
